A study of Mus musculus with 4 samples.

Results

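The testis-specific serine kinase genes Tssk1, Tssk2, Tssk3, Tssk4, Tssk5 and Tssk6, together with Tsks, the gene of a protein that TSSK1 and TSSK2 phosphorylate, were followed in round spermatids. All 7 symbols were found in the deposited expression table by their exact name, among 25965 listed genes. Round spermatids are the haploid male germ cells between meiosis and elongation, and here they were sorted by flow cytometry from testes of mice with the outbred ICR background. Heterozygous cells (Wfdc15a+/-), which served as controls, gave 2 libraries, and cells labelled homozygous (Wfdc15a-/-) gave 2 libraries, so every group carried at least 1 altered allele of Wfdc15a. Wild-type (+/+) controls, which the design text names, were not analysed here. The labels give neither the age of the animals, nor the altered part of Wfdc15a, nor whether the libraries came from separate animals, so the p-values measure the spread between these libraries, which may be technical.

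Testis-specific serine kinases belong to the calcium/calmodulin-dependent (CAMK) group of protein kinases and are switched on after meiosis, when spermatids build the acrosome, condense their chromatin and assemble the flagellum. Loss of both Tssk1 and Tssk2 leaves male mice sterile, loss of Tssk6 impairs the packing of sperm DNA, and TSSK4 phosphorylates ODF2, a protein of the outer dense fibres of the sperm tail. Several of these kinases depend on the chaperone HSP90, and TSSK6 in addition on the small co-chaperone TSACC.

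Tssk1 and Tssk2 are neighbours on chromosome 16 of the mm10 build. The deposited interval of Tssk1 is chr16:17894203-17895651 and that of Tssk2 is chr16:17898637-17900023, both on the plus strand, and GENCODE M21 annotates 1 exon in each, with 365 and 358 codons. The deposited interval of Tssk1 overlaps Dgcr2, a gene on the opposite strand, and its 1429 exon bases share 0 with exons of Dgcr2. The annotated exon of Tssk1 beyond that interval was not compared. Dgcr2 is named for its position. Over their aligned coding sequences the 2 genes were identical at 853 of 1053 bases (81.0%), while the other 14 pairs of kinase genes were identical at 58.0% to 63.4%. The longest stretch without a difference between Tssk1 and Tssk2 was 113 bases, at coding bases 371 to 483 of each gene, and holds the codons of the catalytic loop and of the start of the activation segment. It is printed here with 20 flanking bases on each side, because a read that lies within it fits both genes. Capitals mark the 8 bases that differ. The sequences are from GENCODE M21 transcripts, at chr16:17894703-17894855 and chr16:17899085-17899237, 5′ to 3′ on the plus strand.
Tssk1: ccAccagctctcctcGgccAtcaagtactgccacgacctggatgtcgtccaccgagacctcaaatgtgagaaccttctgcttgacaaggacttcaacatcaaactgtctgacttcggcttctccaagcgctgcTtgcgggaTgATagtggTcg
Tssk2: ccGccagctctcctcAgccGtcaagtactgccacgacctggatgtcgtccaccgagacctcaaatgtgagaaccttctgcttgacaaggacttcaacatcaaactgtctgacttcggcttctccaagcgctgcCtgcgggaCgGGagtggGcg
Of all 50-base words in the 2 transcripts, 125 were shared, which is 3.42% of the words of Tssk1 and 9.34% of those of Tssk2. The 2 shares are not alike, because the annotated transcript of Tssk1 has 3700 bases, of which 1429 lie in the deposited interval. Over that interval the share of Tssk1 is larger, and it was not counted. The other 14 kinase pairs shared 0 such words, and their longest identical run was 14 bases. Between Tssk1 and Tssk2, windows of 50 bases centred on Tssk1 coding bases 575 to 630 were also 100% identical, and that stretch is not printed. The sources used here do not give how the counting treated reads that fit both genes, so a part of the reads of Tssk1 and Tssk2 is uncertain between them.

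**Figure D1:**
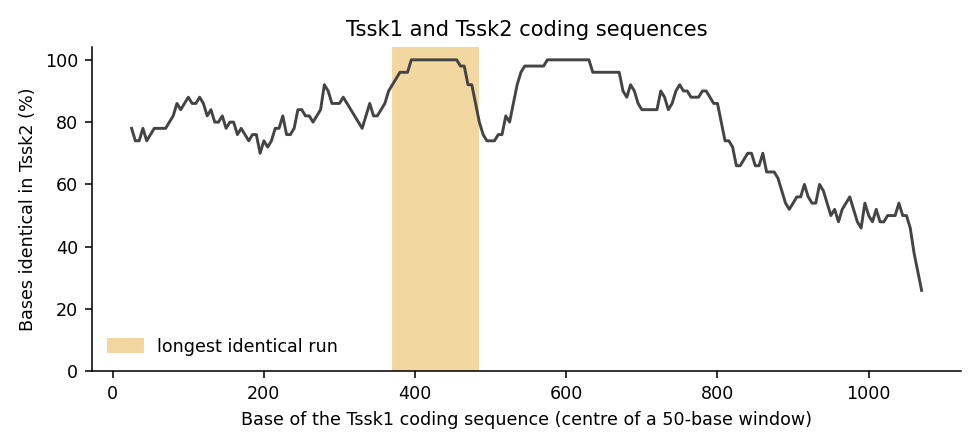
Percent of bases identical in Tssk2, in windows of 50 coding bases of Tssk1 (vertical axis), against the Tssk1 coding position in bases (horizontal axis). Tssk1 bases without an aligned Tssk2 base count as not identical, and 1053 of the 1095 were aligned. The shaded run at coding bases 371 to 483 is identical in both genes. The percent counted in this way is lowest, 26%, at the 3′ end.

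The bases just upstream of the 2 starts are shown because the neighbouring genes share a word there. Sequences are the 70 bases before the annotated start from RefSeq (GRCm38.p6), at chr16:17894133-17894202 for Tssk1 and chr16:17898567-17898636 for Tssk2, 5′ to 3′ on the plus strand, and capitals mark TGACTTCA or its reverse complement TGAAGTCA.
Tssk1: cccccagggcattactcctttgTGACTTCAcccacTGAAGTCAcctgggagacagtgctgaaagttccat
Tssk2: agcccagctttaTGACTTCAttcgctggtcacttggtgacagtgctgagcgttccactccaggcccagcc
TGACTTCA was searched on both strands after it had been seen in these sequences. It occurred in 2 of the 6 members with a promoter in the RefSeq table, at 48 and 35 bases before the start of Tssk1 and 58 bases before that of Tssk2, and in 1.52% of all 32851 promoters of the same length, from 250 bases before to 50 bases after the start. The full cAMP response element TGACGTCA, a palindrome bound by CREB and CREM, occurred in 0 of the 6 and in 1.79% of all promoters. Its shorter core TGACG, on either strand and also contained in the full element, occurred in 1 of the 6, Tssk6 (73 bases before the start), and in 20.8% of all promoters. These matches describe letters in the windows and say nothing of binding.

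The other members are spread over the genome. Tssk3 lies at chr4:129489014-129491022 on the minus strand (2 exons, 268 codons). Tssk4 lies at chr14:55650182-55652539 on the plus strand (4 exons, 338 codons). Tssk5 lies at chr15:76371958-76374938 on the minus strand (8 exons, 372 codons). Tssk6 lies at chr8:69902184-69903516 on the plus strand (1 exon, 273 codons), and Tsks at chr7:44943222-44958035 on the plus strand (11 exons, 585 codons). Exon and codon numbers are those of the transcript with the longest coding sequence.

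Values are RPM, the reads of a gene scaled to the total of its library, without adjustment for gene length, and differences are on the log2 RPM scale. Library totals recovered from the steps of the values were 5774112 and 33853604 reads in heterozygous libraries 1 and 2, and 21160061 and 11268909 reads in libraries 1 and 2 labelled knockout. The fewest reads of a member in a library were the 184 of Tssk6 in heterozygous library 1, and the most were the 13704 of Tsks in heterozygous library 2. These are PCR reads without molecular identifiers, so such counts are not numbers of molecules. Wfdc15a, the targeted gene, had reads in all 4: heterozygous libraries 1 and 2 held 121 and 85.2 RPM, and the knockout-labelled ones 82.6 and 59.5 RPM (log2 difference -0.53, SE 0.29, limma adjusted p = 0.647), so the genotype is given as labelled. Markers of round spermatids summed to between 2210 and 3148 RPM in the 4 libraries, and those of spermatocytes to between 478 and 818 RPM. The 11 macrophage markers summed to 26.3 and 21.8 RPM in the heterozygous but to 307 and 98.2 RPM in the knockout-labelled libraries, and 10 of 11 lay above both heterozygous libraries. In these bulk libraries, fewer cells of a type and less RNA per cell cannot be told apart.

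All 7 genes were transcribed in every library, and none was called different between the genotypes. Of the 7 members 0 passed a limma adjusted p of 0.05, against 0% of the 15888 tested genes (0 genes, smallest adjusted p 0.202). At an unadjusted p under 0.05 there were again 0 members, against 8.08% of the tested genes (1283 genes), and limma after voom weighting of the reads passed 0 genes, with 1961 at that unadjusted p. The groups overlapped for each of the 7 members, so 0 had groups that did not overlap, against 38.5% of the tested genes (3729 above and 2387 below both heterozygous libraries). The median of the 7 log2 differences, knockout minus heterozygous, was 0.0010, beside 0.07 over all tested genes, and the 7 differences lay between -0.26 and 0.16. With voom weighting 1 member was higher and 6 were lower, between -0.46 and 0.04.

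**Figure D2:**
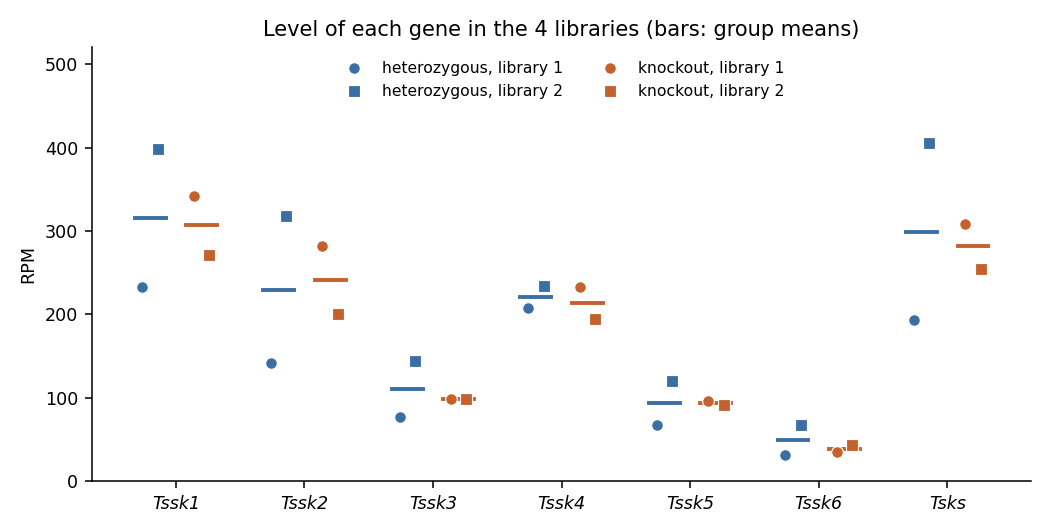
RPM (vertical axis) of the 6 kinase genes and Tsks in each library, with blue points for heterozygous and orange points for knockout-labelled libraries and bars for the group means. For every gene the points of the groups overlap, and heterozygous library 2 is the highest.

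Tssk1 was at 233 and 398 RPM in heterozygous libraries 1 and 2 and at 342 and 271 RPM in knockout-labelled libraries 1 and 2. Both knockout-labelled values lay between the heterozygous ones. The means were 316 ± 117 RPM and 307 ± 50.02 RPM (SD, n = 2 each), and the log2 difference was 0.0010 (SE 0.27, 95% confidence interval -0.60 to 0.60, limma adjusted p = 0.999). Tssk2 was at 142 and 318 RPM against 282 and 201 RPM, again with the knockout-labelled libraries between the heterozygous ones. Its means were 229.8 ± 125 RPM and 241 ± 57.2 RPM (SD, n = 2 each), a log2 difference of 0.16 (SE 0.35, interval -0.60 to 0.93, limma adjusted p = 0.935).

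Tsks, whose product is the substrate of these 2 kinases, followed the same order. It was at 193 and 405 RPM in the heterozygous and at 309 and 254 RPM in the knockout-labelled libraries, which lay inside the heterozygous range. The means were 299 ± 149.8 RPM and 281 ± 38.4 RPM (SD, n = 2 each), and the log2 difference was 0.0036 (SE 0.31, interval -0.69 to 0.70, limma adjusted p = 0.999).

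Tssk3, a kinase whose activity rises when PDK1 phosphorylates it, was at 76.5 and 144 RPM against 99.0 and 99.2 RPM. The knockout-labelled libraries were nearly equal and lay inside the heterozygous range. Its log2 difference was -0.082 (SE 0.31, interval -0.76 to 0.60, limma adjusted p = 0.968), with means of 110.1 ± 47.4 RPM and 99.1 ± 0.177 RPM (SD, n = 2 each). Tssk5 was at 67.9 and 120.0 RPM against 96.1 and 91.7 RPM, also inside the heterozygous range. Its means were 94.0 ± 36.9 RPM and 93.9 ± 3.15 RPM (SD, n = 2 each), a log2 difference of 0.056 (SE 0.30, interval -0.61 to 0.72, limma adjusted p = 0.980).

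Tssk4, the kinase of ODF2, had the most even values. Its 208 and 234 RPM in the heterozygous and 232 and 194 RPM in the knockout-labelled libraries made a 1.21-fold range. It was the one member whose lowest value was in a knockout-labelled library. The means were 221 ± 18.6 RPM and 213 ± 26.9 RPM (SD, n = 2 each), and the log2 difference was -0.055 (SE 0.22, interval -0.55 to 0.44, limma adjusted p = 0.971).

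Tssk6 had the lowest level of the family, at 31.9 and 67.3 RPM against 34.7 and 43.0 RPM. The knockout-labelled libraries lay nearer to the lower heterozygous value. Its means were 49.6 ± 25.1 RPM and 38.9 ± 5.87 RPM (SD, n = 2 each), a log2 difference of -0.26 (SE 0.37, interval -1.08 to 0.56, limma adjusted p = 0.895), the widest interval of the 7. Of the 1333 exon bases of Tssk6 in the deposited interval, 375 (28.1%) are also exon of Ndufa13, a gene of respiratory complex I on the opposite strand that is named for this overlap. Smart-seq2 does not keep the strand, so reads of this stretch cannot be told apart. Ndufa13 was at 49.0 and 66.5 RPM in the heterozygous and at 63.7 and 36.9 RPM in the knockout-labelled libraries. Like Tssk6 it was highest in heterozygous library 2, but it was lowest in knockout library 2. Yjefn3, also on the opposite strand, shares 15 exon bases (1.13%) with Tssk6. It was at 52.6 and 79.5 RPM against 71.5 and 46.1 RPM. The part of reads from these 2 genes in the values of Tssk6 was not tested.

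**Figure D3:**
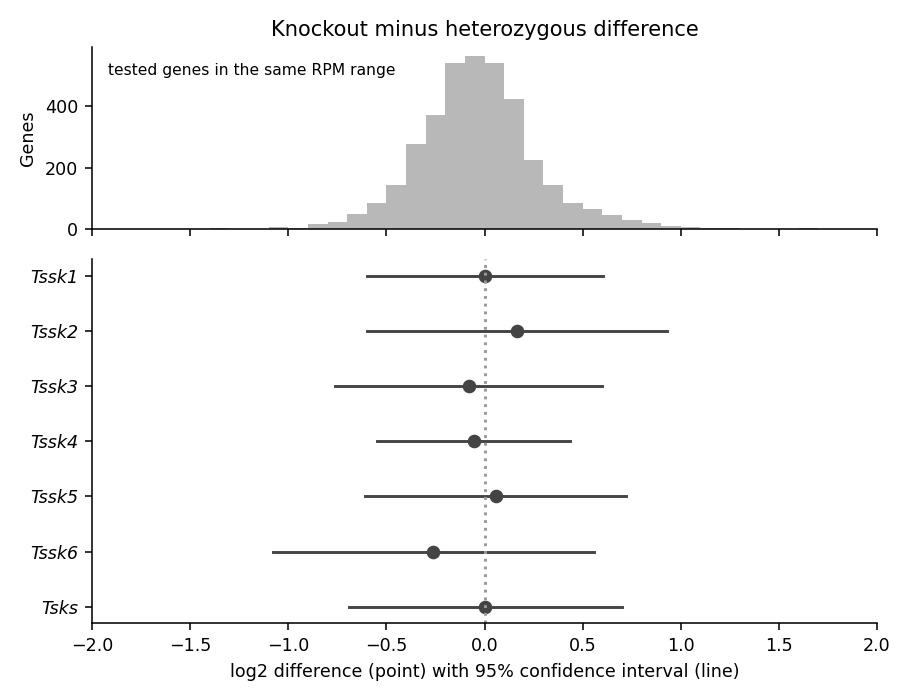
Log2 difference in RPM, knockout-labelled minus heterozygous libraries (points), with its 95% confidence interval (lines) for the 7 genes. Every interval includes 0, and the points lie between -0.26 and 0.16.

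The main spread in these genes was between the 2 heterozygous libraries. From heterozygous library 1 to library 2 the log2 RPM differed by 0.77 for Tssk1, 1.17 for Tssk2, 0.91 for Tssk3, 0.82 for Tssk5, 1.08 for Tssk6 and 1.07 for Tsks, but by 0.17 for Tssk4. Among 3715 tested genes in the same range of RPM, the median absolute gap between the heterozygous libraries was 0.31 and the median signed gap was -0.0067. In 7.11% of them heterozygous library 2 exceeded library 1 by at least the 0.77 of Tssk1, and in 35.3% by at least the gap of Tssk4. The 6 members other than Tssk4 were lowest in heterozygous library 1 and highest in heterozygous library 2, an order that 7.82% of the tested genes had. In Tssk1, Tssk2, Tssk5 and Tsks, 4 of the 7 members, RPM followed the order of the library totals, which 4.98% of the tested genes did. The part of depth in this was not tested. Summed over the 7 members, the level was 952 and 1686 RPM in heterozygous libraries 1 and 2 and 1395 and 1155 RPM in the knockout-labelled ones.

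Which heterozygous library was left out set the direction of the comparison. For the 6 members lowest in heterozygous library 1 and highest in heterozygous library 2, that order fixes the direction, so it is no further result. Without heterozygous library 1 all 7 members were lower in the knockout-labelled libraries, by log2 differences of -0.80 to -0.14 (median -0.42, smallest limma adjusted p 0.241). Without heterozygous library 2 all 7 were higher, by 0.03 to 0.75 (median 0.39, smallest limma adjusted p 0.103). The median over all tested genes was 0.09 and 0.0072 in these comparisons. Without knockout library 1 the differences were -0.18 to 0.02, and without knockout library 2 they were -0.42 to 0.41. Over all tested genes, 442 passed without heterozygous library 1 and 558 without heterozygous library 2, and 0 of these were members.

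Markers of later spermatids moved between the same libraries. The 8 elongating spermatid markers summed to 3824 and 7189 RPM in heterozygous libraries 1 and 2, and to 4173 and 3860 RPM in the knockout-labelled libraries. In this list 0 of 8 passed and the median log2 difference was -0.59. An unadjusted limma p under 0.05 was found for 4 of 8, all 4 lower. Of all tested genes 8.08% had it in either direction, 986 higher and 297 lower. The median log2 difference was -1.02 without heterozygous library 1 and -0.15 without heterozygous library 2. Prm1, which encodes protamine 1, was at 529 and 931 RPM in the heterozygous and at 308 and 223 RPM in the knockout-labelled libraries. Prm1, Prm2, Tnp1 and Tnp2 each lay in the knockout-labelled libraries below both heterozygous ones, where 38.5% of all tested genes did not overlap. These 4 and Odf1 were lowest in knockout library 2. Akap4, the gene of the main fibrous sheath protein of the sperm tail, was at 664 and 1362 RPM against 1012 and 1172 RPM, lowest and highest in the same libraries as 6 of the 7 members. With Oaz3 and Gapdhs, 2 other genes of late spermatids, 3 of the 8 markers had that order. In the round spermatid list, Catsper3 and Catsper4 were the 2 of 8 with that order. In the spermatocyte list there were 0 of 8, beside 7.82% of all tested genes. These markers are named after their values were seen. Summed spermatocyte markers went the other way, at 818 and 478 RPM in the heterozygous and at 601 and 809 RPM in the knockout-labelled libraries. Their part in the levels of the kinase genes was not tested.

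**Figure D4:**
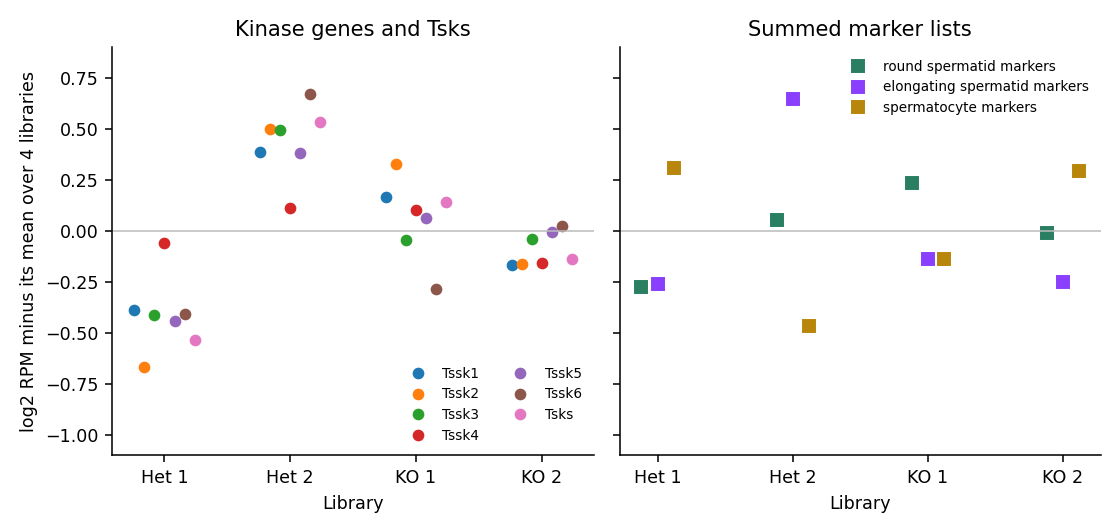
Log2 RPM of each gene minus its mean over the 4 libraries (left), and of 3 summed marker lists in the same way (right), by library. Of the 7 genes, 6 lie lowest in heterozygous library 1 and highest in heterozygous library 2, and summed elongating spermatid markers are highest in heterozygous library 2 at 7189 RPM.

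The median centred log2 value of the 7 members was -0.41 and 0.49 in the heterozygous and 0.10 and -0.14 in the knockout-labelled libraries. Tssk1, Tsks, Tssk3 and Tssk5 lay closest to it, with root mean square distances over the 4 libraries of 0.0662, 0.0675, 0.0872 and 0.0895. Tssk2 at 0.170, Tssk6 at 0.227 and Tssk4 at 0.261 lay farthest. Among 7259 tested genes with a mean of at least 10 RPM, the 3 nearest to the median pattern were Tmem53 (distance 0.0272), Arl2 (0.0329) and Tctex1d1 (0.0387). Tmem53, the gene of a transmembrane protein, was at 163 and 307 RPM in the heterozygous and at 243 and 202 RPM in the knockout-labelled libraries. Arl2, which encodes a small GTPase, was at 22.0 and 39.6 RPM against 30.6 and 25.1 RPM. Tctex1d1, the gene of a dynein light chain family protein, was at 101 and 179.7 RPM against 146 and 122.6 RPM. With 4 libraries, many genes can share such a pattern, and the likeness is a description.

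Ratios between members within a library do not depend on the scaling between libraries. The log2 ratio of Tssk1 to Tsks was 0.27 and -0.02 in the heterozygous and 0.15 and 0.09 in the knockout-labelled libraries, a range of 0.29. Ranges were narrower for Tssk3 to Tssk5 (0.22), Tssk1 to Tssk5 (0.27) and Tssk5 to Tsks (0.28). The log2 ratio of Tssk1 to Tssk2 was 0.72 and 0.33 against 0.28 and 0.43, highest in heterozygous library 1. Over all 21 pairs of members the range of the ratio over the 4 libraries had a median of 0.59, and 10 pairs stayed under 0.5. The 6 pairs with Tssk4 had ranges of 0.60 to 0.99, with a median of 0.82, and the 15 pairs without it had a median of 0.42. The widest was that of Tssk2 to Tssk4, at -0.55 and 0.44 against 0.28 and 0.05.

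The groups did not overlap in 2 of the 21 ratios, each with no test, where 38.5% of the tested genes did not overlap in RPM. The share over all pairs of genes was not counted. The log2 ratio of Tssk2 to Tsks was -0.45 and -0.35 in the heterozygous and -0.13 and -0.34 in the knockout-labelled libraries. The log2 ratio of Tssk3 to Tssk5, the steadiest of all with a range of 0.22, was 0.17 and 0.26 against 0.04 and 0.11. The group means of these ratios differed, knockout minus heterozygous, by 0.16 and by -0.14, with overlapping groups for each of the 4 genes themselves.

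**Figure D5:**
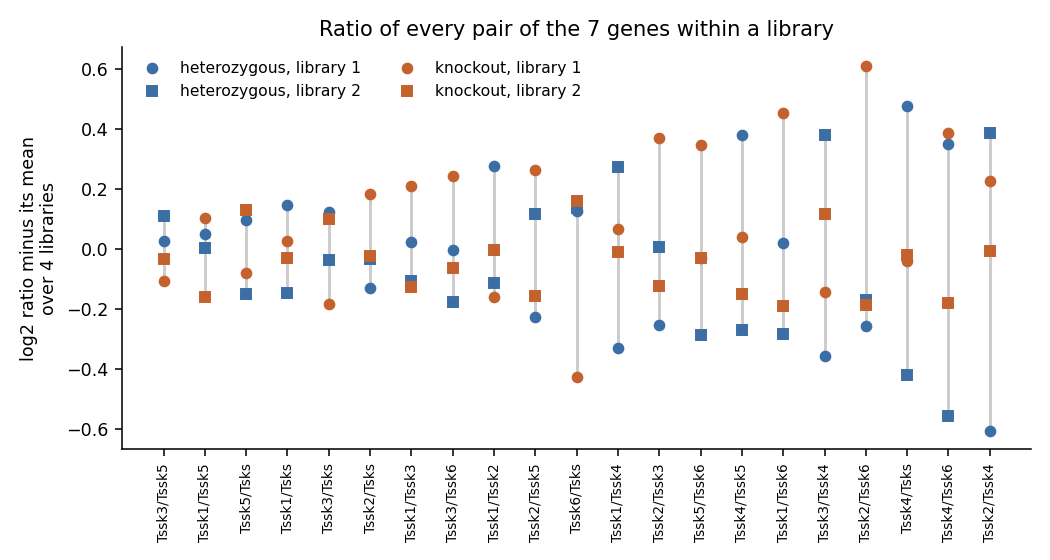
Log2 ratio of RPM within each library, minus its mean over the 4 libraries (vertical axis), for all 21 pairs of the 7 genes, with blue points for heterozygous and orange points for knockout-labelled libraries. Over the 21 pairs the ranges run from 0.22 for Tssk3 to Tssk5 up to 0.99 for Tssk2 to Tssk4.

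Levels of different genes were compared per kilobase of annotated exon, as the mean ± SD over the 4 libraries of both groups. Tssk2 was first at 169.7 ± 57.2 RPM per kb, followed by Tsks at 149.9 ± 46.4 RPM per kb and Tssk4 at 127 ± 11.3 RPM per kb. Then came Tssk1, over its whole annotated exon of 3700 bases, at 84.1 ± 19.9 RPM per kb. Tssk3 was at 81.7 ± 22.0, Tssk5 at 45.3 ± 10.3 and Tssk6 at 33.1 ± 12.1 RPM per kb. Neighbours in this order overlapped in their libraries except Tssk4 above Tssk1 and Tssk3 above Tssk5. Within libraries, Tssk2 lay above Tsks in 4 of 4, Tsks above Tssk4 in 3 of 4, Tssk1 above Tssk3 in 2 of 4 and Tssk5 above Tssk6 in 4 of 4. The place of Tssk1 rests on its length. GENCODE M21 gives it an exon of 3700 bases, of which only 1429 lie in the deposited interval that its value is listed for. With these 1429 bases Tssk1 was first at 218 ± 51.5 RPM per kb, above Tssk2 in 4 of 4 libraries, though their ranges overlapped. The order of the other 6 stayed. If reads were counted only in the deposited interval, the 84.1 RPM per kb of Tssk1 and its place below Tssk4 are too low.

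Known partners of these kinases were taken from a list of 8 genes of chaperones, an upstream kinase, substrates and a phosphatase. Of the 8, 0 passed in either direction and 0 had an unadjusted limma p under 0.05. Their median log2 difference was 0.09, beside 0.07 over all tested genes, with 3 above and 1 below both heterozygous libraries, where 38.5% of all tested genes did not overlap. With median-ratio scaling this median was 0.055, and with quantile normalization 0.14, beside 0.04 and -0.0055 over all tested genes. Ppp1cc, the gene of the protein phosphatase 1 subunit that TSKS binds, was at 507 and 572 RPM in the heterozygous and at 434 and 419 RPM in the knockout-labelled libraries (log2 difference -0.34, SE 0.20, limma adjusted p = 0.674). Pdpk1, which encodes the kinase that activates TSSK3, was at 124 and 198 RPM against 207 and 222 RPM (log2 difference 0.45, SE 0.26, limma adjusted p = 0.677). Creb1, the gene of a transcription factor that TSSK4 can phosphorylate, was at 4.16 and 4.19 RPM against 5.39 and 9.50 RPM (log2 difference 0.78, SE 0.50, limma adjusted p = 0.713). Hsp90ab1, which encodes an HSP90 chaperone, was at 123 and 113 RPM against 170.4 and 128 RPM (limma adjusted p = 0.769). The other HSP90 gene of the list, Hsp90aa1, is named after its values were seen. It had the higher level, at 2413 and 1794 RPM against 2195 and 2268 RPM, with overlapping groups. Values of 2 further partners, chosen after they were seen, are given for their direct tie to the family. Tsacc, the co-chaperone gene of TSSK6 that the table lists by the older symbol 1700021C14Rik, was at 189 and 237 RPM against 201 and 173 RPM, with overlapping groups. Odf2, the gene of the tail protein that TSSK4 phosphorylates, was at 2451 and 3638 RPM against 3113 and 3159 RPM. It was the 1 partner of 8 lowest in heterozygous library 1 and highest in heterozygous library 2, beside 7.82% of the tested genes.

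A list of 12 other protein kinases of spermatids also had 0 passing genes and 0 with an unadjusted limma p under 0.05. Its median log2 difference was 0.06. Of the 12, 2 lay below and 0 above both heterozygous libraries, where 38.5% of all tested genes did not overlap. The median changed sign with the libraries used, at -0.10 without heterozygous library 1, 0.28 without heterozygous library 2 (where 1 of the 12 passed), 0.08 without knockout library 1 and -0.07 without knockout library 2. It was 0.03 with median-ratio scaling and 0.10 with quantile normalization. Csnk2a2, a casein kinase 2 catalytic subunit gene needed for normal sperm head shape, was at 225 and 148 RPM against 131 and 128 RPM (log2 difference -0.50, limma adjusted p = 0.639). Stk31 was at 29.1 and 19.6 RPM against 27.6 and 55.0 RPM (log2 difference 0.71, limma adjusted p = 0.651). Stk35 was at 136 and 163 RPM against 109.9 and 120.3 RPM (log2 difference -0.37, limma adjusted p = 0.711). Camk4, a calcium/calmodulin-dependent kinase gene of germ cells, was at 42.1 and 119.9 RPM against 95.3 and 105 RPM (log2 difference 0.49, limma adjusted p = 0.786).

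The wider CAMK group, related to the testis-specific kinases by sequence but broadly expressed, was described by 26 genes, of which 23 were tested. Again 0 passed in either direction, and the median log2 difference was 0.13. An unadjusted limma p under 0.05 was found for 3, all 3 higher. Of all tested genes 8.08% had it in either direction, 986 higher and 297 lower. The median was 0.26 without heterozygous library 1 (where 1 passed), 0.05 without heterozygous library 2 and 0.19 without knockout library 1. Of the 23, 6 lay above and 3 below both heterozygous libraries, where 38.5% of the 15888 tested genes did not overlap (3729 above and 2387 below). The 3 below were Mark1, Chek1 and Sik2, named after their values were seen, with Chek1 at 43.8 and 39.6 RPM against 23.8 and 39.0 RPM. Mark2, which encodes a microtubule affinity-regulating kinase, was at 18.0 and 19.8 RPM against 38.2 and 32.5 RPM (log2 difference 0.90, SE 0.31, limma adjusted p = 0.563). Camk2d was at 2.60 and 1.62 RPM against 4.68 and 7.90 RPM (limma adjusted p = 0.585). Prkaa1, the gene of an AMP-activated kinase subunit, was at 1.56 and 3.28 RPM against 6.57 and 5.59 RPM (limma adjusted p = 0.596). Pskh1 was at 1.04 and 1.65 RPM against 3.21 and 3.46 RPM (limma adjusted p = 0.641). Mark2, Camk2d, Prkaa1 and Pskh1 lay in both knockout-labelled libraries above both heterozygous ones. They were named for the smallest p of the list, which favours such an order. Of the 11 macrophage markers 10 had this order too, and the part of macrophage RNA in the CAMK genes was not tested.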

How the data were processed

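The 4 libraries came from sorted round spermatids, amplified with Smart-seq2 (15 cycles of PCR) and tagmented with Nextera XT, per the labels' protocols. The authors deposited log2 RPM values for 25965 genes with mm10 coordinates. The submitters' processing notes name HISAT2 2.1.0, Trim Galore 0.6.6, FastQC 0.11.8 and the mm10 build. The counter, annotation and filters were not given in the sources used here. In each library the lowest value equals 0.9 read, and 99.68% to 99.99% of the other values were whole reads within 0.01 read, which gave the library totals.

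Groups and replicate numbers came from the titles, and 0 sample columns were left unused. The filter kept 15888 genes with at least 1 RPM in 2 or more libraries, all 7 members among them. The groups were tested on the deposited log2 values with limma 3.58.1 (R 4.3.3), whose moderation followed a mean-variance trend. Tests were two-sided, with a threshold of 0.05 on the p adjusted by Benjamini-Hochberg over all tested genes. The code was tested on simulated data. Tables, sequences and plots used Python 3.11.15, pandas 2.3.3, numpy 2.4.6, Biopython 1.88 and matplotlib 3.10.9.

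The members and gene lists were chosen with earlier results of these data known. Named genes are the members, up to 4 genes with the smallest p of each of the 3 gene lists, the 3 genes of at least 10 RPM nearest to the median pattern (leaving out Gm-number and Rik symbols), and Wfdc15a. Other genes are named for their position or, as marked in the text, after their values were seen. Tsacc, Cilk1 and Adgre1 were matched by older symbols through RefSeq synonyms, and Cilk1 is listed as Ick. With all libraries, 0 genes passed in any list of cell type markers. The median log2 difference was 0.21 for 8 round spermatid markers, 0.15 for 8 spermatocyte, 1.03 for 7 spermatogonial, 1.07 for 6 tested Sertoli, 3.33 for 4 tested Leydig and 4.26 for 11 macrophage markers. Leaving out 1 library at a time, these medians ranged from 0.01 to 0.39, -0.36 to 0.50, 0.54 to 1.20, 0.18 to 1.52, 2.51 to 3.88 and 3.57 to 5.30, in the same order. Summed Sertoli markers were at 18.0 and 41.7 RPM in the heterozygous and 54.7 and 51.2 RPM in the knockout-labelled libraries, Leydig markers at 5.72 and 3.16 against 35.9 and 17.7 RPM, and spermatogonial markers at 57.3 and 50.7 against 86.7 and 75.3 RPM. Cd68, Cd74, C1qa, C1qc, Cyp17a1, Cyp11a1, Hsd3b6 and Rhox5 were each at 0 reads in at least 1 library. Alternatives were median-ratio and quantile scaling, a filter of 5 RPM or none, log2(RPM + 1), no trend, voom, a replicate block, leaving out each library and 2 other gene lengths. The length inside the deposited interval and leaving out libraries for the cell type lists were chosen after seeing the data.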

Additional observations from a re-analysis of the deposited data

How the results depend on the processing

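Of all tested genes, 0 passed with median-ratio scaling, quantile normalization, a filter of 5 RPM, no variance trend or voom, as in the reported comparison. The count was 1 with log2(RPM + 1), 180 with no filter and 66 with the replicate block, and leaving out 1 library at a time gave 0 to 558, with 442 without heterozygous library 1, 558 without heterozygous library 2, 0 without knockout library 1 and 5 without knockout library 2; the cause was not tested. None of the 7 members passed under any of these alternatives. The replicate numbers come from the titles and share only a number. Deviations of same-numbered libraries had a correlation of -0.076 over 15888 genes. The replicate block cannot change the members' differences, because each number occurs in both groups, so their equality says nothing of pairing. With a single library in a group, that library is assumed to vary like the other group. Under median-ratio scaling the log2 difference of Tssk1 was -0.030 and that of Tsks -0.028, and with voom Tssk1 was at -0.081, Tssk5 at -0.058 and Tsks at -0.12, while Tssk6 went to -0.46, Tssk3 to -0.21 and Tssk2 to 0.04 without changing sign. Leaving out 1 library at a time gave -0.39 to 0.39 for Tssk1, -0.42 to 0.75 for Tssk2, -0.54 to 0.37 for Tssk3, -0.18 to 0.074 for Tssk4, -0.35 to 0.47 for Tssk5, -0.80 to 0.28 for Tssk6 and -0.53 to 0.54 for Tsks. The one level that moved beyond the spread was that of Tssk1, 218 RPM per kb with the exon bases inside the deposited interval. The fewest reads behind a value were the 184 of Tssk6 in heterozygous library 1, and the part of depth in the spread was not tested.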

Other observations

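Among the 12 other kinases of spermatids, 4 were lowest in heterozygous library 1 and highest in heterozygous library 2, as were 6 of the 7 testis-specific kinase members, and they are named after their values were seen. Besides Camk4, these were Hipk4, a kinase gene of spermatid head shaping, at 99.6 and 149.6 RPM in the heterozygous and at 145 and 109 RPM in the knockout-labelled libraries, Stk36 at 141 and 218 RPM against 206 and 203 RPM, and Cdk16, a cyclin-dependent kinase gene needed for spermatogenesis, at 68.1 and 143 RPM against 118 and 91.4 RPM. In the CAMK group the order was found in 3 of 26 genes, Nuak2, Camk2b and Snrk, likewise named after their values were seen. In the spermatogonial, Sertoli, Leydig and macrophage lists the order was found in 0 genes. Of all tested genes, 7.82% had this order.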
